A study of Mus musculus with 27 samples.

Results

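The genes described here encode acute phase proteins that hepatocytes secrete into plasma: lipocalin 2 (Lcn2), the orosomucoids (Orm1, Orm2 and Orm3), the serum amyloid A proteins (Saa1, Saa2 and Saa3), the protease inhibitor Serpina3n, haptoglobin (Hp) and hemopexin (Hpx). They were chosen by symbol, and every probe set that the array annotation maps to 1 of these 10 genes was taken, 13 of the 12488 on the array. Of these probe sets, 12 carried 1 symbol and 1 carried both Orm2 and Orm1, and together they covered 9 of the 10 genes, since no probe set was annotated to Saa1. All 13 passed the filter on low values, which kept 6784 probe sets lying above the median of their array in at least 9 of the 27 arrays.

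Liver RNA of 27 mice was hybridised to 27 Affymetrix arrays, each with the RNA of a single mouse. The labels name 3 groups of 9 mice, Dex, Veh and Con, and spell out neither these names nor the agent, dose, time, route, strain, sex or age. The design compares Dex with Veh, Veh with Con and Dex with Con. Mice are numbered within their group, and the labels do not say whether the numbers link mice of different groups.

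Acute phase proteins are plasma proteins whose synthesis in the liver rises during inflammation, infection or tissue injury. Interleukin-6 acts on hepatocytes through the transcription factor STAT3, and interleukin-1 and tumour necrosis factor act through NF-kB and the C/EBP factors, while glucocorticoids often strengthen both. Lcn2 binds bacterial siderophores and so withholds iron, Hp captures free haemoglobin and Hpx free haem, the serum amyloid A proteins ride on high density lipoprotein, the orosomucoids carry small lipophilic molecules, and Serpina3n inhibits serine proteases.

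Several of these genes are close copies that lie side by side. On GRCm38.p6, Orm1 (chr4:63344556-63348163), Orm3 (chr4:63356069-63359506) and Orm2 (chr4:63362449-63365877) stand in a row with 7905 and 2942 bases between them. Saa3 (chr7:46711998-46719615), Saa1 (chr7:46740497-46743181) and Saa2 (chr7:46751833-46754313) do the same with gaps of 20881 and 8651 bases. Hpx lies on the same chromosome as the Saa genes (chr7:105591611-105600116), and Lcn2 (chr2:32384637-32387739), Hp (chr8:109575128-109579172) and Serpina3n (chr12:104406646-104414334) lie elsewhere. RefSeq gives the symbols Saa1 and Saa2 as synonyms of each other, so a signal annotated to Saa2 can include Saa1 transcripts. By the naming convention of the array, the suffix _f_at of a Saa2 and a Hpx probe set marks probes that match several members of a sequence family, the suffix _g_at of the probe set with the symbols Orm2 and Orm1 a group of genes, and the suffix _r_at of a Lcn2 probe set probes for which a design rule was dropped.

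The promoters of 8 of the 10 genes were at hand in RefSeq's table for GRCm38.p6, and the 250 bases before the start site used there were searched on both strands for 4 motifs. The C/EBP core TTGCNNAA stood in 7 of the 8 (Lcn2, Orm3, Orm2, Saa3, Saa1, Saa2 and Hpx), and in 9.56% of all 32851 promoters searched in the same way. The first 5 sequences below are printed because these genes share the core and range from the largest change to none in the same livers, and the capitals mark the C/EBP core. They are Saa2 (chr7:46751583-46751832, plus strand), Saa3 (chr7:46715677-46715926, minus strand), Orm2 (chr4:63362199-63362448, plus strand), Orm3 (chr4:63355908-63356157, plus strand) and Lcn2 (chr2:32387740-32387989, minus strand), each written 5′ to 3′ on the strand of its gene. The start sites used for Saa3, Saa1, Orm3 and Serpina3n lie within the outermost bounds of the gene.
Saa2: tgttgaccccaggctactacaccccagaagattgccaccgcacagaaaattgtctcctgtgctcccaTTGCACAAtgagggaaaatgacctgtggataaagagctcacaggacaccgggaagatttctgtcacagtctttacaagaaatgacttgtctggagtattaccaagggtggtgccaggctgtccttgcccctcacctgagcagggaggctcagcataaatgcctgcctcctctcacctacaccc
Saa3: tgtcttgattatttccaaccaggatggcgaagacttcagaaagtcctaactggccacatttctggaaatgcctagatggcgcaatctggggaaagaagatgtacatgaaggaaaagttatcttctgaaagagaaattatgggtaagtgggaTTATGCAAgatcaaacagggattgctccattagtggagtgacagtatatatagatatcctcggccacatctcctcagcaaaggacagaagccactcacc
Orm2: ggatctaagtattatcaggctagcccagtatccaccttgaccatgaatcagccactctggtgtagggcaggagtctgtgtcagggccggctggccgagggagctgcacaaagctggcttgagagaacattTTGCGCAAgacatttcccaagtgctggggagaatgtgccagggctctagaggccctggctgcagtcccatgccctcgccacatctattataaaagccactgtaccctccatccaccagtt
Orm3: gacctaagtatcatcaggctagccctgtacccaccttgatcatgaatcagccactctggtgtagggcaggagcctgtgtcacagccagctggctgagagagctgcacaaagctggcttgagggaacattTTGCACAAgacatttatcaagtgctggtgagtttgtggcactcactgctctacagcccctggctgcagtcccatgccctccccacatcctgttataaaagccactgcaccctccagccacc
Lcn2: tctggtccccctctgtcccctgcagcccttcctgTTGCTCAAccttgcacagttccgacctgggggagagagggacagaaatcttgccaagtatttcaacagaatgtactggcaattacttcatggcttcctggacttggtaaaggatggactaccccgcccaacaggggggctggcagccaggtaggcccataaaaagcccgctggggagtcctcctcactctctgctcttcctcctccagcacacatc
The C/EBP core began 183 bases before the start in Saa2, 99 in Saa3, 120 in Orm2, 121 in Orm3 and 216 in Lcn2. The windows of Orm3 and Orm2 were identical at 218 of 255 aligned positions (85.5%), and those of Saa1 and Saa2 at 238 of 251 (94.8%). The STAT motif TTCNNNGAA (in 7.02% of all promoters) and an NF-kB motif with GGGA and TTCC set 2 bases apart (1.21%) had no match in the 8 windows, which says only that these letters are not in these bases. A glucocorticoid response element with GNACA and TGTNC set 3 bases apart (0.387% of all promoters) matched once, in Serpina3n (chr12:104406458-104406707, plus strand), beginning 78 bases before the start and marked by capitals.
Serpina3n: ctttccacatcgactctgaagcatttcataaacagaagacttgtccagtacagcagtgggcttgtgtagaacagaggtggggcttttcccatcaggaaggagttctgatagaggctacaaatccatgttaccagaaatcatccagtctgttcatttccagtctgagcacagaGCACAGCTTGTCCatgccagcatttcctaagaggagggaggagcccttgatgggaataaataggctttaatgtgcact
A match is a description of the letters, and binding was not measured.

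Across the series, array medians ran from 17.6 to 33.3. A sign of RNA quality, the beta-actin log2 ratio of the 3′ over the 5′ control, was 0.886 ± 0.169 in Dex, 1.27 ± 0.318 in Veh and 0.947 ± 0.243 in Con (SD, n = 9 each; two-sided exact permutation test over 48620 splits, adjusted over 9 tests, p = 0.0137 for Dex vs Veh, 0.0759 for Veh vs Con and 0.577 for Dex vs Con). The Gapdh ratio was 0.237 ± 0.157 in Dex, 0.50 ± 0.251 in Veh and 0.354 ± 0.116 in Con (SD, n = 9 each; exact permutation adjusted p = 0.0639 for Dex vs Veh). With either ratio as a covariate 6 member probe sets changed in Dex vs Con, 0 in Dex vs Veh and 1 in Veh vs Con, as many as with no covariate. Actb, taken as a control, changed by 0.36 in Dex vs Veh (log2, limma adjusted p = 0.731), by -0.35 in Veh vs Con (0.655) and by 0.01 in Dex vs Con (0.988). All 13 hepatocyte markers on the array passed the filter, and their summed intensity was 59050 to 136230 in Dex, 56548 to 84214 in Veh and 52724 to 84064 in Con, with Dex 2 the highest.

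In Dex livers, 6 of the 9 measured genes rose against Con livers by their main probe set, the 1 with the highest mean: Lcn2 by 47.3-fold, Saa2, Orm3 and Saa3 by 4.19 to 6.53-fold, Serpina3n by 2.10-fold and Hp by 1.68-fold. The Lcn2 fold is set against signals near the array median in Con and was 27.3 with values under that median raised to it, and Saa2, Serpina3n and Hp did not pass without Dex 1, Dex 2 and Dex 3. Against Veh livers 11 of the 13 probe sets were higher in Dex by their means, but none passed the test (limma). In Veh livers only Orm3 rose against Con. The differences between mice of 1 group were large, up to 213-fold for Lcn2 in Veh, and the same few mice were high for most of these genes.

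Counted over probe sets, 6 of the 13 (46.2%) were higher in Dex than in Con past the test, and 0 were lower, while 16.4% of all 6784 tested probe sets changed and 3.26% were higher (limma, Benjamini-Hochberg over all tested probe sets, threshold 0.05). In Veh against Con, 1 of the 13 was higher (7.69%), against 3.86% of all tested probe sets changed and 1.19% higher. In Dex against Veh, 5 of the 13 and 1029 of all 6784 tested probe sets had an unadjusted limma p under 0.05. After adjustment 0 of the 13 changed, where 0.265% of all tested probe sets changed and 0.0442% were higher. That background moved with single arrays: the 18 probe sets changed in Dex vs Veh became 124 when Dex 6 was left out, 59 or 58 when Dex 8 or Dex 9 was, and 4 when Dex 5 was, with 0 members among them each time. With 1 array left out the counts over all tested probe sets ran from 85 (without Veh 5) to 586 (without Veh 9) in Veh vs Con and from 785 (without Dex 1) to 1488 (without Dex 8) in Dex vs Con. The median log2 change of the 13 probe sets was 0.75 for Dex vs Con, 0.39 for Veh vs Con and 0.55 for Dex vs Veh, where the median of all tested probe sets was -0.20, -0.19 and -0.03. Quantile normalization moved these medians of all tested probe sets to -0.04, -0.02 and -0.04, and turned 81 higher of 262 changed in Veh vs Con into 45 higher of 85 changed. Relative to the median of all tested probe sets, the 6 changes past the test in Dex vs Con ran from 0.94 (Hp) to 5.76 (Lcn2). The comparisons share arrays, so their counts are not independent of each other.

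**Figure D1:**
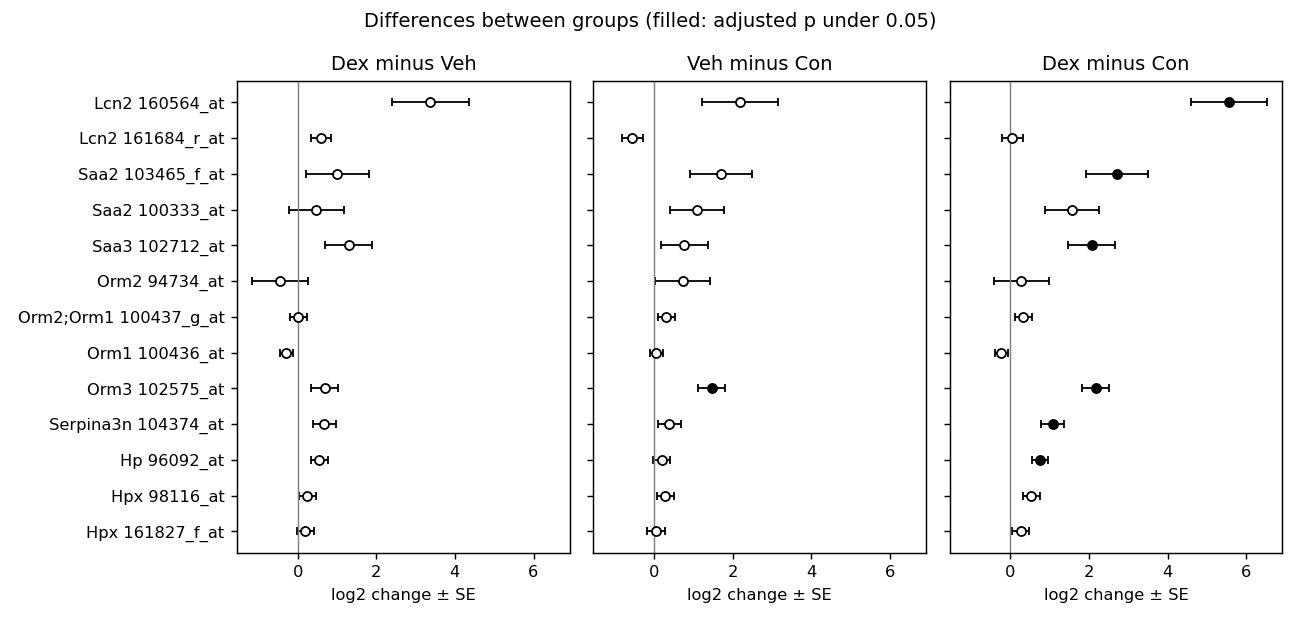
Difference between group means (log2 intensity, horizontal axis) of each of the 13 probe sets for Dex minus Veh, Veh minus Con and Dex minus Con, with bars for the standard error of the fit. Filled points passed an adjusted p of 0.05 (limma): 0 in the left panel, Orm3 in the middle, and Lcn2, Saa2, Saa3, Orm3, Serpina3n and Hp in the right.

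Lcn2, the siderophore-binding lipocalin, had the largest difference of the 13 probe sets. Its intensity was 4008.5, 7685.6, 1549.4, 3821.6, 2693.9, 1505.8, 290.1, 320.6 and 207.4 in Dex 1 to 9. It was 17.6, 2699.4, 104.6, 326.4, 353.2, 50.6, 1159.6, 12.7 and 23.5 in Veh 1 to 9. It was 352.5, 12.3, 9.2, 14.4, 8.5, 10.6, 17.9, 31.4 and 412.0 in Con 1 to 9. Every Dex mouse lay above all Con mice except Con 1 and Con 9, which overlapped the 3 lowest Dex mice, and the Veh mice ran from the level of the low Con mice to that of the high Dex mice. The change was 5.56 ± 0.97 on the log2 scale in Dex vs Con (SE, 9 mice per group, limma adjusted p = 0.000595; 9 of 9 Dex mice above the Con median, 6 above the highest Con mouse), a fold of 47.3. It was 3.38 ± 0.97 in Dex vs Veh (0.0943; Veh median exceeded by 9 of 9 Dex mice) and 2.19 ± 0.97 in Veh vs Con (0.165; 8 of 9 Veh mice above the Con median).

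The size of the Lcn2 fold rests on weak signals in Con. The probe set lay above the array median in 9 Dex, 6 Veh and 3 Con arrays, and with every value under the median of its array raised to that median, a setting chosen after the values were seen, the change in Dex vs Con was 4.77 (limma adjusted p = 0.000733). The other Lcn2 probe set, of the _r_at kind, did not follow: it ranged from 19.1 to 70.7 in Dex (median 47.6), from 16.8 to 39.2 in Veh (28.5) and from 20.6 to 76.9 in Con (38.3). Its groups overlapped throughout, and its change in Dex vs Con was 0.04 ± 0.27 (SE, limma adjusted p = 0.929).

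Hp, which captures haemoglobin, was high in every liver. Its intensity in Dex 1 to 9 was 24951.6, 26072.0, 14918.7, 25472.2, 18374.2, 11541.9, 13471.2, 11400.7 and 17491.8. In Veh 1 to 9 it was 12097.0, 15345.5, 9428.1, 14814.9, 10788.2, 9078.4, 26160.1, 9665.3 and 6967.5. In Con 1 to 9 it was 10229.5, 14715.6, 9810.3, 7879.9, 10083.3, 9570.6, 8519.6, 9154.8 and 15372.4. All 9 Dex mice lay above the Con and the Veh median, with 5 above the highest Con mouse, and 1 Veh mouse, Veh 7, was the highest of the 27. Hp rose by 0.75 ± 0.21 (log2, SE, limma adjusted p = 0.0165) in Dex vs Con and changed by 0.55 ± 0.21 in Dex vs Veh (0.199) and 0.19 ± 0.21 in Veh vs Con (0.588). Under quantile normalization the Dex vs Con change was 0.36 and did not pass (limma adjusted p = 0.0877).

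Hpx, the haem-binding counterpart, was measured by a pair of probe sets and passed no test. The main one was 6983.5 to 21425.3 in Dex (median 9865.6), 6297.6 to 22613.4 in Veh (9147.6) and 6081.0 to 11531.2 in Con (8182.5). The groups overlapped, with Dex 1, Dex 2, Dex 4 and Veh 7 at 18208.7 to 22613.4, far above every Con mouse. Its change in Dex vs Con was 0.53 ± 0.22 (SE, limma adjusted p = 0.0885) and passed once a single mouse, Dex 6, was left out (0.63, adjusted p = 0.0379). The _f_at probe set changed by 0.26 ± 0.23 (0.456), and in Dex vs Veh the main probe set changed by 0.24 ± 0.22 (0.605).

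Albumin, the main plasma protein of hepatocytes and a negative acute phase protein, was higher in Dex than in Con as well (0.61 ± 0.19, SE, limma adjusted p = 0.0276), though not under quantile normalization (0.0099, 0.922). The log2 ratio of the Hp to the albumin probe set in the same array was -0.599 ± 0.183 in Dex, -0.838 ± 0.297 in Veh and -0.736 ± 0.324 in Con (SD, n = 9 each). The difference of this ratio was 0.14 in Dex vs Con (two-sided exact permutation p = 0.302, adjusted over 6 tests 0.653). In Dex vs Veh it was 0.24 (exact permutation p = 0.0573, adjusted 0.344). Hp was thus not shown to move apart from albumin, and a test that does not pass cannot show that the 2 moved together. The ratio of Hpx to albumin differed by -0.08 in Dex vs Con (exact adjusted p = 0.653). These ratios were added after the values had been seen.

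Saa2, an apolipoprotein that high density lipoprotein takes up in inflammation, ranged 11.4-fold among Dex, 59.7-fold among Veh and 36.0-fold among Con mice. Its _f_at probe set read 3691.4, 22799.4, 2566.9, 19605.2, 3600.6, 3233.1, 5503.6, 1998.4 and 3788.0 in Dex 1 to 9. It read 387.4, 14833.7, 4393.4, 9986.6, 7806.5, 513.2, 17572.5, 709.2 and 294.3 in Veh 1 to 9. In Con 1 to 9 it read 4732.0, 826.7, 269.1, 453.4, 216.1, 387.9, 599.2, 508.5 and 7789.7. Every Dex mouse was above 7 of the 9 Con mice, Con 1 and Con 9 lay among the Dex mice, and the Veh mice fell into a high set (Veh 2, 3, 4, 5 and 7) and a low set (Veh 1, 6, 8 and 9) with none between. The log2 change was 2.71 ± 0.79 in Dex vs Con (SE, limma adjusted p = 0.0203; fold 6.53; 9 of 9 Dex mice above the Con median), 1.69 ± 0.79 in Veh vs Con (0.191; 7 of 9 Veh mice above it) and 1.01 ± 0.79 in Dex vs Veh (0.544; 3 of 9 Dex mice above the Veh median).

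The other Saa2 probe set was highest in Dex 2 (2925.0), Veh 2 (2462.7) and Con 9 (1410.1), all of them also among the high mice of the first. Its medians were 413.6 in Dex, 551.0 in Veh and 125.4 in Con, and all 9 Dex mice lay above the Con median. The change in Dex vs Con, 1.57 ± 0.69, did not pass (SE, limma adjusted p = 0.115), and passed when Con 9 alone was left out (1.93, adjusted p = 0.0472). The 2 Saa2 probe sets therefore differ in the call but not in direction.

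Saa3, the serum amyloid A that mouse macrophages and fat cells also make, read 132.7, 3779.9, 314.1, 2346.1, 476.2, 338.2, 415.5, 280.4 and 243.3 in Dex 1 to 9. It read 64.8, 624.5, 242.2, 174.3, 344.8, 114.7, 567.1, 49.4 and 273.6 in Veh 1 to 9. Con 1 to 9 read 252.5, 50.7, 79.9, 71.8, 63.1, 110.0, 126.5, 63.7 and 1031.4. Dex 2 and Dex 4 stood above every other mouse, Con 9 stood above all Veh mice, and the remaining groups overlapped. Saa3 rose by 2.07 ± 0.60 in Dex vs Con (log2, SE, limma adjusted p = 0.0188; fold 4.19; 9 of 9 Dex mice above the Con median), and changed by 1.30 ± 0.60 in Dex vs Veh (0.289; Veh median exceeded by 8 of 9 Dex mice) and 0.77 ± 0.60 in Veh vs Con (0.437).

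**Figure D2:**
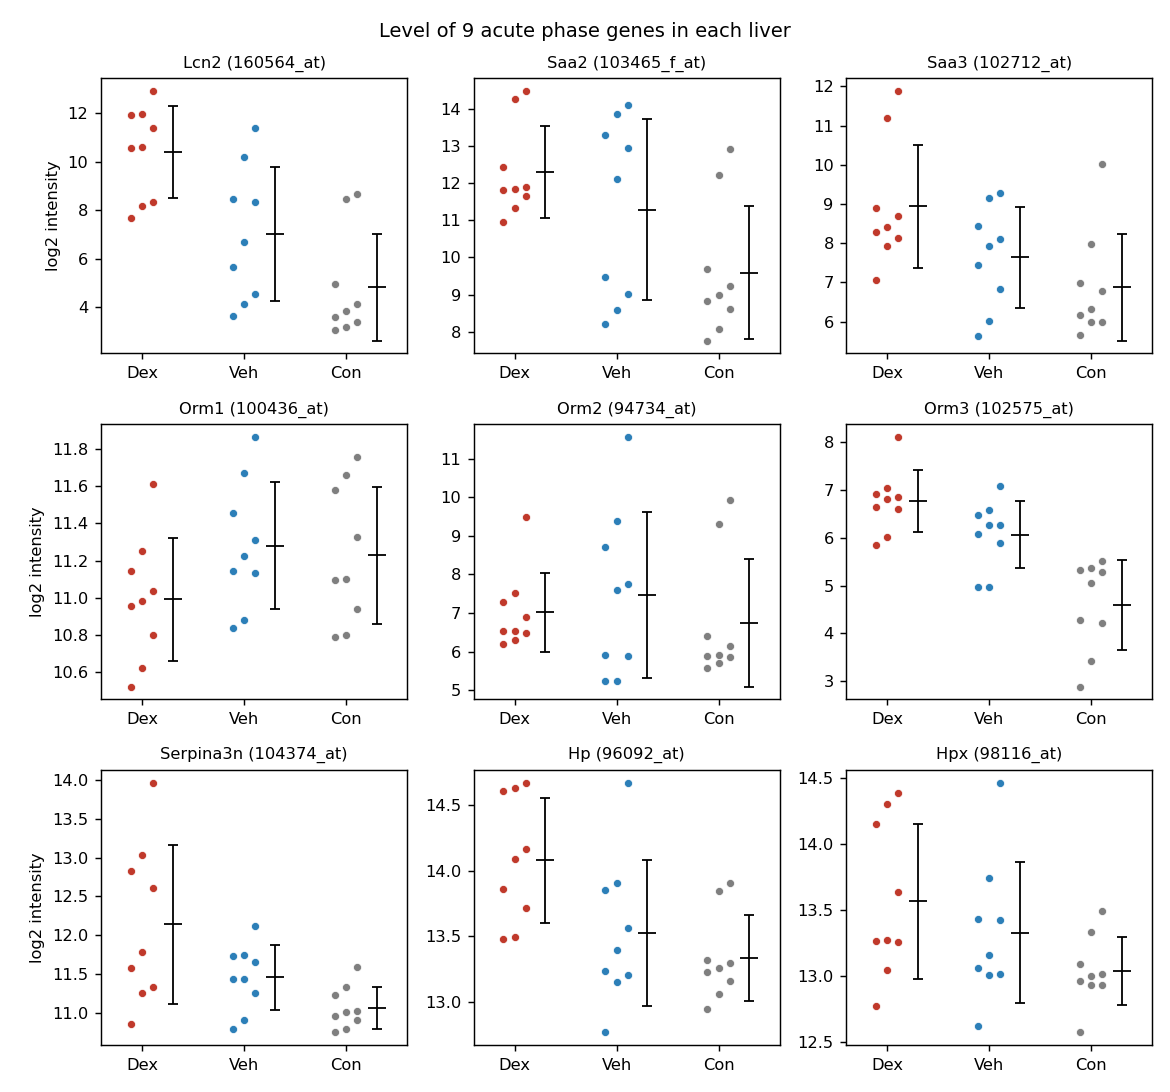
Level of the main probe set of each of the 9 genes (log2 intensity, vertical axis, a scale of its own per gene) in every liver; points are single mice of Dex, Veh and Con, and the bars beside them give the mean and SD of 9 mice. Among these 9 genes only Orm3 has Dex and Con mice that do not overlap, and in Con the same pair of mice stands high for Lcn2, Saa2 and Orm2.

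The orosomucoid genes, which lie side by side, gave unlike results, and only Orm3 passed a test. Orm3 read 276.9, 131.2, 116.3, 57.4, 111.5, 100.6, 64.7, 120.8 and 97.5 in Dex 1 to 9. It read 59.3, 96.3, 31.3, 67.8, 89.1, 76.5, 136.3, 31.3 and 77.1 in Veh 1 to 9. Con 1 to 9 read 40.4, 38.7, 19.5, 10.8, 7.4, 46.0, 33.3, 41.2 and 18.7. All 9 Dex mice lay above the highest Con mouse, as did 7 of the 9 Veh mice, and Dex and Veh overlapped. The share of all tested probe sets whose Dex and Con mice separate in this way is not given here. Orm3 rose by 2.16 ± 0.34 in Dex vs Con (log2, SE, limma adjusted p = 0.000309; fold 4.48) and by 1.47 ± 0.34 in Veh vs Con (0.0190; fold 2.77), and its change in Dex vs Veh was 0.69 ± 0.34 (0.333; 7 of 9 Dex mice above the Veh median). It lay above the array median in 9 Dex, 9 Veh and 5 Con arrays, and with values raised to the array median the changes were 1.69 (limma adjusted p = 0.000241) in Dex vs Con and 0.99 (0.0296) in Veh vs Con.

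Orm2 had no change past the test in any comparison. Its probe set read 182.3, 712.4, 73.5, 156.1, 119.3, 89.0, 92.2, 78.2 and 93.1 in Dex 1 to 9. It read 37.4, 3041.3, 194.9, 215.6, 418.3, 59.1, 664.9, 37.9 and 59.7 in Veh 1 to 9. In Con 1 to 9 it read 637.2, 58.9, 47.8, 60.5, 58.0, 70.2, 84.7, 52.1 and 975.4. The highest values sat in the mice that were high for Saa2, namely Dex 2, Veh 2 and Veh 7, and Con 1 and Con 9. The changes were 0.28 ± 0.70 in Dex vs Con (SE, limma adjusted p = 0.819), with all 9 Dex mice above the Con median, 0.73 ± 0.70 for Veh vs Con (0.540) and -0.45 ± 0.70 for Dex vs Veh (0.785; 1 of 9 Dex mice above the Veh median).

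Orm1 stayed within 2.13-fold among Dex, 2.04-fold among Veh and 1.96-fold among Con mice. It was 1470.3 to 3127.3 in Dex (median 2022.7), 1830.5 to 3732.6 in Veh (2395.7) and 1769.1 to 3462.1 in Con (2192.1), with overlapping groups. Its changes were -0.24 ± 0.16 in Dex vs Con (SE, limma adjusted p = 0.325), -0.29 ± 0.16 in Dex vs Veh (0.394) and 0.05 ± 0.16 in Veh vs Con (0.861). Under quantile normalization Orm1 was lower in Dex than in Con by a margin that passed (-0.48, limma adjusted p = 0.0383). The probe set shared by Orm2 and Orm1 was 5096.4 to 16290.2 in Dex, 4339.4 to 14215.7 in Veh and 5103.2 to 10462.8 in Con, and passed no test (0.32 ± 0.22 in Dex vs Con, adjusted p = 0.315); it cannot tell the pair of genes apart.

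Serpina3n, the mouse serpin whose window held the match to the letters of a glucocorticoid response element, read 7302.1, 16010.2, 6271.1, 8373.7, 3515.0, 2450.9, 3059.5, 2575.7 and 1862.3 in Dex 1 to 9. It read 2782.9, 4469.2, 2779.0, 3448.7, 3410.3, 1921.6, 3239.8, 2454.0 and 1773.8 in Veh 1 to 9. Con 1 to 9 read 2413.5, 2577.7, 1722.7, 2092.1, 1927.8, 1781.8, 2063.2, 1998.9 and 3077.0. Dex 1 to 4 stood above every mouse of the other groups, while Dex 6 to 9 lay in the range of the Con and Veh mice. It rose by 1.07 ± 0.28 in Dex vs Con (log2, SE, limma adjusted p = 0.0118; fold 2.10; 8 of 9 Dex mice above the Con median, 5 above the highest), and changed by 0.68 ± 0.28 in Dex vs Veh (0.239; Veh median exceeded by 6 of 9 Dex mice) and 0.39 ± 0.28 in Veh vs Con (0.410).

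Dex 1, Dex 2 and Dex 3 had been set apart in an earlier look at these data, and the Dex vs Con calls were taken again without them. Then 3 of the 13 probe sets changed in place of 6, where all tested probe sets gave 405 in place of 1115. The calls of Lcn2 (4.85, a fold of 28.8 in place of 47.3; limma adjusted p = 0.0111), Orm3 (1.87, 0.00568) and Saa3 (adjusted p = 0.0446) held. Those of Saa2 (2.58, limma adjusted p = 0.0736), Serpina3n (0.57, 0.128) and Hp (0.60, 0.101) did not. Each of the 6 calls in Dex vs Con, and that of Orm3 in Veh vs Con, held in all 27 sets that leave out a single array.

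The order of the group means on the log2 scale was Dex, then Veh, then Con for Lcn2 (10.39 ± 1.89, 7.01 ± 2.75 and 4.83 ± 2.20, SD, n = 9 each), Saa2, Saa3, Orm3 (6.76 ± 0.65, 6.07 ± 0.71 and 4.60 ± 0.95), Serpina3n (12.14 ± 1.02, 11.46 ± 0.42 and 11.07 ± 0.27), Hp and Hpx. For Orm2 and Orm1 the Veh mean was the highest. Neighbours in that order differed past the test only for Orm3 between Veh and Con. The spread among mice was itself compared, by the absolute distance of each mouse from its group median. No member passed (0 of 13 in each comparison), where 0% of the 6784 probe sets did in Dex vs Veh, Veh vs Con or Dex vs Con (limma; at an unadjusted p under 0.05, 3, 0 and 1 members and 516, 218 and 850 of all tested probe sets in that order of comparisons). The lowest adjusted p of a member was 0.268, in Dex vs Con.

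**Figure D3:**
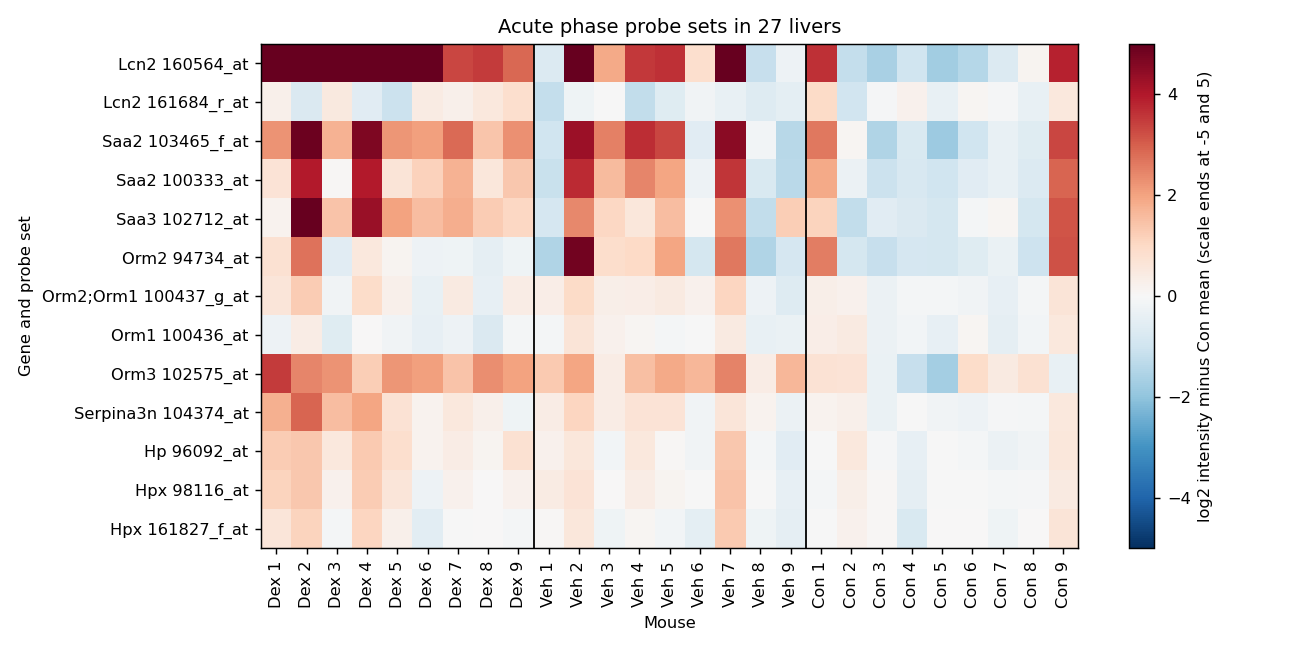
Log2 intensity of the 13 probe sets (rows) in each of the 27 livers (columns, Dex 1 to 9, Veh 1 to 9, Con 1 to 9), as the difference from the mean of the 9 Con arrays, with the colour scale ending 5 log2 units either side of 0. Every Dex column is red for several rows at once, as are several Veh columns, Veh 2 and Veh 7 among them, and in Con chiefly Con 1 and Con 9. The Orm3 row is red in all 9 Dex columns.

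Most of the genes were high in the same mice. Dex 2 was the highest Dex mouse for 8 of the 9 genes and Con 9 the highest Con mouse for 8 of 9, and Veh 2 and Veh 7 shared the top place in Veh with 5 and 4 genes. The exception in Dex and in Con was Orm3, which peaked in Dex 1 and Con 6. Dex 2 was also the highest Dex mouse for the summed hepatocyte markers. The share of all tested probe sets that peak in Dex 2, Veh 2, Veh 7 or Con 9 is not given here. The array of Dex 2 had the lowest median of its group (18.4) and that of Veh 2 the lowest of all 27 (17.6) together with the highest beta-actin ratio (1.92), while Con 9 had a median of 28.0; their part in these peaks was not tested.

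Within a group, 36 pairs of genes were correlated over 9 mice, 108 tests in all (two-sided exact permutation of Pearson's r, Benjamini-Hochberg over the 108). Among the members 13 pairs passed in Dex, 14 in Veh and 11 in Con, all with a positive r. Pairs of other genes were not tested, so no background share stands beside these counts. With the 2 mice farthest from the median of the first gene left out, 2, 2 and 0 member pairs passed. By Spearman's rho over all 9 mice 5, 7 and 2 did. Fewer mice also leave less to test with: of the passing pairs, 10 of 13 in Dex, 14 of 14 in Veh and 5 of 11 in Con kept an r over 0.5, and the median r of all 36 pairs was then 0.52 in Dex, 0.63 in Veh and 0.047 in Con. In Con, Con 1 and Con 9 stand apart from the other 7, and for Saa2 the Veh and the Dex mice form separate sets as well, so a pooled r is not given for these. Lcn2 and Orm2 in Veh had r = 0.972 and rho = 0.967 (exact permutation p = 1.1e-05, adjusted 0.000992; rho adjusted 0.00893), and r = 0.955 without the 2 farthest mice (exact adjusted p = 0.0429).

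Hp and Hpx passed with and without the 2 farthest mice in Dex and in Veh. In Dex r was 0.966 and rho 0.983 (exact permutation adjusted p = 0.000992; r = 0.959 without the 2 farthest mice, adjusted 0.0429), and in Veh r was 0.986 and rho 0.933 (exact permutation adjusted p = 0.000992; r = 0.941, adjusted 0.0429). In Con the value without the 2 farthest mice was 0.80 (exact adjusted p = 0.170). Lcn2 and Hp in Dex passed only without the 2 farthest mice (r = 0.877, exact adjusted p = 0.0429; over 9 mice r = 0.707, rho = 0.767, exact adjusted p = 0.0772). Lcn2 and Serpina3n in Dex had r = 0.840 and rho = 0.90 (exact permutation adjusted p = 0.0287), and r = 0.799 without the 2 farthest mice, which no longer passed (adjusted p = 0.142). Orm3 passed in 0 of its 24 pairs, with r between -0.44 and 0.67 and 1 pair at an unadjusted exact p under 0.05. Saa2 and Orm2 each passed in 14 of 24. Whether Orm3 correlated less than the other genes was not tested.

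**Figure D4:**
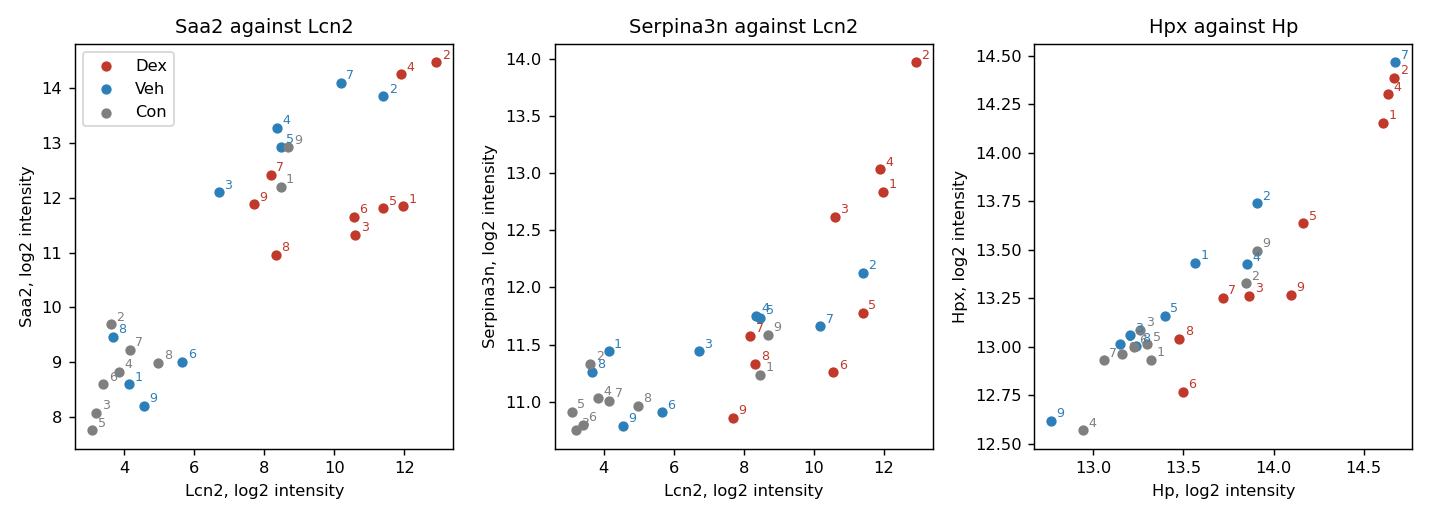
Saa2 against Lcn2, Serpina3n against Lcn2 and Hpx against Hp (log2 intensity on both axes), 1 point per liver with its mouse number, coloured by group. In the left panel Con 1 and Con 9 lie beside the high Veh mice, and Dex 1, 3, 5 and 6 lie to the right of both Con mice and of Veh 7, at a Saa2 level below that of Veh 7.

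Over all 27 arrays, the genes outside these whose levels were most like each of them were found among 5186 genes by Pearson's r of log2 intensity. These values share the arrays, their scaling and the differences between the groups, and are a description. Orm1 was nearest to Serpina10 (0.776), Itih4 (0.737) and the ceruloplasmin gene Cp (0.721), all liver plasma proteins. Orm2 was nearest to the lipopolysaccharide-binding protein gene Lbp (0.757), Lrg1 (0.755) and Saa-ps (0.752), a serum amyloid A pseudogene whose _f_at probes can take up Saa transcripts, and Saa2 to Saa-ps (0.768), the coagulation factor gene F7 (0.716) and the angiotensinogen gene Agt (0.713). Hp and Hpx were both nearest to Alb (0.859 and 0.863) and Apoe (0.839 and 0.849), followed by Apoa1 (0.828) for Hp and the elongation factor gene Eef1a1 (0.840) for Hpx. Serpina3n (0.854, 0.829) and Lcn2 (0.767, 0.751) shared Fh1 of the citrate cycle and the GTPase gene Arf1, joined by the ribosomal protein gene Rpl19 (0.805) for Serpina3n and by Lbp (0.753) for Lcn2. Orm3 was nearest to the fatty acid hydroxylase gene Cyp4a14 (0.781), Pum3 (0.742) and the cytokine subunit gene Ebi3 (0.738), and Saa3 to Htra2 (0.726), Cilp2 (0.712) and Saa-ps (0.680).

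Of 33 other positive acute phase proteins listed, 23 were tested, 3 were higher in Dex than in Con (limma, adjusted p under 0.05; 3.26% of all tested probe sets were higher and 16.4% changed) and 0 were lower, and 0 changed in Veh vs Con or Dex vs Veh. Those 3 were the antitrypsin genes Serpina1b (0.54 ± 0.17, SE, adjusted p = 0.0267) and Serpina1c (0.50 ± 0.18, 0.0478), whose _f_at probe sets cannot separate members of that family, and the immunoglobulin transporter gene Pigr (0.40 ± 0.14, 0.0478). Under quantile normalization these 3 changed by 0.045, -0.050 and 0.057 and none passed, and the fibrinogen chain gene Fgb was lower in Dex than in Con (-0.65, adjusted p = 0.0329; -0.39, 0.183 on the deposited scale). Without Dex 1, Dex 2 and Dex 3 the 3 did not pass either (adjusted p = 0.147 to 0.202), and Fgb did (-0.63, 0.0375). The median change of the 23 was 0.19 for Dex vs Con, 0.17 for Veh vs Con and 0.095 for Dex vs Veh. The metallothionein genes Mt1 and Mt2, which bind zinc and respond to glucocorticoids and metals, had the smallest p of the list in Dex vs Veh, at 2.91 ± 1.16 (adjusted p = 0.219) and 2.79 ± 0.99 (0.174). Serpina10, which inhibits coagulation, changed by 0.59 ± 0.24 in Veh vs Con (0.143).

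Negative acute phase proteins are those that fall in inflammation. Of 11 tested, 3 were higher in Dex than in Con (against 3.26% of all tested probe sets), namely Alb, Apoa1 (0.67 ± 0.20, SE, limma adjusted p = 0.0234) and the paraoxonase gene Pon1 (0.40 ± 0.13, 0.0375), and Pon1 was also higher in Veh than in Con (0.47 ± 0.13, 0.0421); 0 were lower in any comparison. Under quantile normalization only Apoa1 passed (0.18 in Dex vs Con, adjusted p = 0.0445), and without Dex 1, Dex 2 and Dex 3 none of Alb (0.190), Apoa1 (0.162) and Pon1 (0.0699) passed in Dex vs Con. In Dex vs Veh 0 changed, and the smallest p belonged to the corticosteroid-binding globulin gene Serpina6 (-0.76 ± 0.41, adjusted p = 0.372) and Cyp2e1 (0.31 ± 0.17, 0.384). The median change of the 11 was 0.29 for Dex vs Con, 0.21 for Veh vs Con and 0.14 for Dex vs Veh.

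Among genes of interleukin-6 and interleukin-1 signalling and the transcription factors that drive these promoters, 17 of 29 were tested. The kinase gene Irak1 was lower in Veh (-0.71 ± 0.17, SE, limma adjusted p = 0.0198) and in Dex (-0.56 ± 0.17, 0.0222) than in Con. The receptor gene Lifr was lower in Dex than in Con (-1.05 ± 0.29, 0.0162), with -0.99 ± 0.29 in Veh vs Con (0.0530). Hnf4a, a nuclear receptor that sets hepatocyte identity, was lower in Veh than in Con (-1.16 ± 0.29, 0.0281) and changed by 1.22 ± 0.29 in Dex vs Veh (0.0597). The shared receptor chain gene Il6st had the next smallest p in Dex vs Veh (-0.43 ± 0.18, 0.238). Past the test 2 of the 17 were lower in Dex vs Con and 2 in Veh vs Con (13.2% and 2.67% of all tested probe sets were lower), and 0 were higher in any comparison. Without Dex 1, Dex 2 and Dex 3 neither Irak1 (-0.42, 0.142) nor Lifr (-1.05, 0.0526) passed in Dex vs Con, and Lifr passed in Veh vs Con (0.0415). Under quantile normalization Lifr passed in Dex vs Con (-1.21, adjusted p = 0.0102) and Veh vs Con (-1.15, 0.0445), and Irak1 and Hnf4a did not (0.0747 and 0.0824 in Veh vs Con). Cebpd, which encodes C/EBP delta, changed by -0.21 in Dex vs Con (0.801), and by -1.29 without Dex 1, 2 and 3 (0.0138).

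Of 11 tested genes for receptors and haem handling, 1 was lower in Dex than in Con, where 13.2% of all tested probe sets were lower. It was the erythroid haem synthesis gene Alas2 (-1.97 ± 0.56, SE, limma adjusted p = 0.0178), and none of the others passed. Under quantile normalization Alas2 held (-1.99, 0.0216), and without Dex 1, Dex 2 and Dex 3 it did not (-1.32, 0.0857). The smallest p values besides it were those of Lrp1, the receptor that clears haem bound to Hpx (-0.29 ± 0.11 in Dex vs Veh, 0.197, and 0.30 ± 0.11 in Veh vs Con, 0.103), the ferritin gene Fth1 (0.31 ± 0.12 in Veh vs Con, 0.131) and the globin gene Hba-a1 (0.57 ± 0.22 in Dex vs Con, 0.0662).

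Cells other than hepatocytes can make some of these proteins: neutrophils store LCN2 and macrophages make SAA3. In whole liver, fewer cells of a type and less RNA per cell cannot be told apart. Of 13 neutrophil markers on the array, 4 passed the filter, and Ngp, Cxcr2, Mmp8 and Mmp9 lay at or under the array median on all 27 arrays. The summed intensity of the 13 was 402.3 to 535.5 in Dex, 228.6 to 495.9 in Veh and 291.3 to 508.1 in Con, with overlapping groups; their part in the Lcn2 levels was not tested. The 4 tested markers were all higher in Dex than in Veh by their means, and none passed: Ly6g by 0.84 ± 0.26 (log2, SE, limma adjusted p = 0.118), Camp by 0.88 ± 0.32 (0.187), Elane by 0.59 ± 0.25 (0.247) and Csf3r by 0.35 ± 0.17 (0.323). By their means 0 of the 4 were higher in Veh than in Con, and 3 were higher in Dex than in Con. Of the markers that failed the filter, S100a8 (mean log2 3.89 in Dex, 4.15 in Veh) and Prtn3 (2.61, 3.85) were lower in Dex than in Veh, and the rest were higher. Ly6g was lower in Veh than in Con (-1.13 ± 0.26, SE, limma adjusted p = 0.0183; 0.0751 under quantile normalization), and Camp (0.85 ± 0.32 in Dex vs Con, 0.0659, which passed under quantile normalization at 1.05, 0.0489) and Elane (-0.37 ± 0.25 in Veh vs Con, 0.363) did not pass.

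Of 14 macrophage and Kupffer cell markers on the array, 13 were tested, and 3 were lower in Dex than in Con (13.2% of all tested probe sets were lower): Cd5l (-0.99 ± 0.28, SE, limma adjusted p = 0.0172), Ctss (-0.95 ± 0.31, 0.0338) and Mrc1 (-0.90 ± 0.25, 0.0162). Under quantile normalization Mrc1 alone passed (-0.66, 0.0423), and also without Dex 1, Dex 2 and Dex 3 (-0.96, 0.0336; Cd5l 0.0629, Ctss 0.0518). By their means 0 of the 13 were higher in Dex than in Veh, 1 was higher in Dex than in Con and 5 were higher in Veh than in Con. In Dex vs Veh the smallest p belonged to Ctss (-1.02 ± 0.31, 0.118) and Cd5l (-0.91 ± 0.28, 0.118), and in Veh vs Con to Mpeg1 (0.87 ± 0.42, 0.206) and C1qc (0.51 ± 0.26, 0.232). The summed intensity was 772.4 to 1898.2 in Dex, 1034 to 5345 in Veh and 1113.9 to 2252.4 in Con, and the highest array, Veh 7, was also 1 of the highest Veh mice for Saa2, Saa3, Orm2 and Hp; the part of these cells in those levels was not tested. Of 6 adipocyte markers 3 were tested (Car3, Lep and Lpl) and 0 changed. The 6 had a summed intensity of 615.5 to 6839.5 in Dex, 4278.9 to 7753.4 in Veh and 3346.9 to 6178.3 in Con. Most of the range of this sum was Car3, at 169.8 to 6498.5 in Dex, 4109.5 to 7384.7 in Veh and 3113.8 to 5887.3 in Con. Adipoq, Fabp4 and Retn failed the filter, and adipocyte content was not tested. Of the 13 hepatocyte markers, 5 were higher in Dex than in Con, against 3.26% of all tested probe sets (Alb, Cps1 0.75 ± 0.18, Tat 1.18 ± 0.28, Tdo2 0.70 ± 0.23 and Fah 0.37 ± 0.13; limma adjusted p = 0.0276, 0.00606, 0.00705, 0.0371 and 0.0450) and Otc was lower (-0.40 ± 0.14, SE, 0.0429). Under quantile normalization Otc alone passed (-0.61, limma adjusted p = 0.00672), with Tat at 0.77 (0.0507) and Cps1 at 0.40 (0.0573). Without Dex 1, Dex 2 and Dex 3 none of the 13 passed, with Tat at 0.57 (0.0802), Cps1 at 0.52 (0.0676) and Tdo2 at 0.20 (0.478).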

How the data were processed

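Per the labels' protocols, RNA of single mouse livers was extracted with Trizol and RNeasy kits, checked on a Bioanalyzer and labelled by Affymetrix procedures. The authors deposited linear intensities, 1 value for each probe set on each array, scaled to nearly equal trimmed means, as the values show; their software was not given in the sources used here. No further scaling was applied. Intensities under the 10th percentile of positive values (2.6) were raised to it and log2 was taken. The 66 control probe sets were left out.

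Group means of 27 arrays were fitted with limma 3.58.1 in R 4.3.3 (lmFit, eBayes with a mean trend, 24 residual degrees of freedom, two-sided, Benjamini-Hochberg over 6784 probe sets, threshold 0.05), and the same fit to absolute deviations from the group median compared the spread. The pipeline was tested on simulated data. Each array is a single mouse, so the limma p-values set group differences against a spread that holds mouse and array variation together. An array has no read depth, and the number of arrays and the signal limit the precision. Probe sets were named by the platform annotation (1 symbol for 10855, several for 396, none for 1237). Promoters and places came from RefSeq tables of GRCm38.p6.

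The genes, lists, tests and alternatives were chosen with earlier results of these data known. The genes named are the members with all their probe sets, of each other list the genes past the threshold and the 2 with the smallest p per comparison, and for each member the 3 genes with the highest correlation. Replicate numbers were not used as pairs, since the labels name no pairing. The deviations of same-numbered arrays of 2 groups correlated between -0.20 and 0.19, which does not exclude a pairing.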

Additional observations from a re-analysis of the deposited data

Results flagged for a closer look

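The level of Orm2 in Dex 2 stood far from the rest of its group: 712.4, where the next highest Dex mouse had 182.3 and the median was 93.1. Of 39 combinations of probe set and group examined for a distant highest or lowest mouse, this was the 1 found, and chance marks about 5% of such combinations. The same mouse was the highest in Dex for 8 of the 9 genes, and also for the summed hepatocyte markers. Without Dex 2 the change of Orm2 in Dex vs Con was -0.031 in place of 0.28.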

How the results depend on the processing

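With Dex 1, Dex 2 and Dex 3 left out, 3 member probe sets changed in Dex vs Con in place of 6; fewer arrays were then in the fit. Of the correlations between members, 4 passed without the 2 mice farthest from the median in place of 38, where 29 of the 38 kept an r over 0.5 over 7 mice, and 47 passed under quantile normalization. Under each other setting 0 member probe sets changed for Dex vs Veh, 1 for Veh vs Con and 6 for Dex vs Con. These settings included the replicate block, which over all probe sets gave 3, 311 and 1120 in place of 18, 262 and 1115. Arrays correlated best with their own number in 3, 1 and 2 of 9 cases, which does not exclude a pairing. Leaving out each array in turn gave 0, 1 and 6 to 7 member probe sets. Quantile normalization gave 5 higher and 1 lower in Dex vs Con, since Hp lost its call and Orm1 gained one. Over all probe sets the counts of changed probe sets ranged from 1 to 19 in Dex vs Veh, from 33 (beta-actin ratio as covariate) to 1158 (array weights) in Veh vs Con and from 405 to 1160 in Dex vs Con over the settings that keep every array or leave out Dex 1 to 3, and from 4 to 124, 85 to 586 and 785 to 1488 with 1 array left out; the cause was not tested. Changes that turned sign were never past the test. Under quantile normalization these were -0.11 for the Orm2;Orm1 probe set and -0.0014 for the main Hpx probe set in Dex vs Veh, -0.16 for Orm1 and -0.18 for the _f_at Hpx probe set in Veh vs Con, and -0.032 for Orm2;Orm1 and -0.070 for the _f_at Hpx probe set in Dex vs Con. Without Dex 1 to 3 they were -0.11 for Orm2;Orm1 in Dex vs Veh and -0.077 for Orm2 in Dex vs Con. With beta-actin's ratio as covariate they were 0.29 for Orm2 in Dex vs Veh and -0.076 for Orm1 and -0.063 for the _f_at Hpx probe set in Veh vs Con, and with the Gapdh ratio 0.22 for Orm2 in Dex vs Veh and -0.017 for Orm1 in Veh vs Con. Leaving out 1 array, the change of Orm2;Orm1 in Dex vs Veh ran from -0.11 to 0.11, of Orm2 from -0.76 to 0.060 in Dex vs Veh and from -0.031 to 0.67 in Dex vs Con, of Orm1 in Veh vs Con from -0.020 to 0.12, of the _f_at Hpx probe set in Veh vs Con from -0.097 to 0.14, and of the _r_at Lcn2 probe set in Dex vs Con from -0.074 to 0.18.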
